A study of Mus musculus with 3 samples.

Results

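The MS4A family was followed through the blood of mice with a transplanted leukemia, as 8 named genes, Ms4a1, Ms4a3, Ms4a4b, Ms4a4c, Ms4a6b, Ms4a6c, Ms4a6d and Ms4a7, out of 32285 measured features. The members were listed by name, with earlier results of these data known, and all 8 are described. MS4A proteins cross the membrane several times, and the best known sit in signaling complexes at the cell surface. Ms4a1 encodes CD20, a B-cell surface protein that takes part in calcium entry after the B-cell receptor is engaged. Ms4a4b is a lymphocyte gene whose product modulates T-cell responses. Ms4a3 is a marker of granulocyte-monocyte progenitors. Ms4a4c, Ms4a6b, Ms4a6c, Ms4a6d and Ms4a7 are found in monocytes and macrophages, and their molecular roles are less well worked out.

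PB leukocytes were profiled by scRNA-seq in 3 libraries, 1 from naive wild type Balb/C mice and 1 each from wild type Balb/C mice at day 11 (D11, intermediate stage) and day 14 (D14, late stage) after engraftment of BBC2 cells. BBC2 is a single cell line, derived from leukemia of stem cells that carried the BCR-FGFR1 fusion kinase by transduction, and models stem cell leukemia/lymphoma (SCLL) as a pro-B-cell-like disease, so all leukemic values come from 1 line. The study's methods describe young female hosts, the naive mice received no leukemic cells, and the number of mice behind each library is not given in the sources used here. Red cells had been lysed and dead cells removed from all samples, and the study asks how classical monocytes (cMonos) and non-classical monocytes (ncMonos) differ as the leukemia advances. With 1 library per condition no test between conditions was possible, and a difference between conditions cannot be told apart from a difference between libraries. All intervals below are 95% intervals for counting error only.

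The libraries held 5386 (naive), 8536 (D11) and 9337 (D14) barcodes with 30362408, 57640396 and 65861863 unique molecular identifiers (UMIs), of which 3811, 4567 and 4414 barcodes were kept. Hemoglobin genes took 11.2%, 55.9% and 22.5% of all UMIs, and 12 to 18 barcodes were shared by any pair of libraries. Classes were gated by marker genes, none of them an MS4A gene. The ncMono gate held 125 naive, 199 D11 and 620 D14 barcodes and the cMono gate 131, 208 and 73. B cells numbered 404, 279 and 80, T cells 1255, 281 and 112, and NK cells 190, 191 and 53. The gate for pro-B leukemia held 95 barcodes at D11 and 613 at D14. Of the 8 ncMono markers, 8 were found in at least 50% of the gated cells of each library, and of the 7 cMono markers 6 or 7 were. Barcodes in no class made up 6.80%, 6.31% and 10.6% of those kept, and at D14 they included 83 with cMono and 50 with ncMono as the leading list, left out because a further list was also well detected. UMIs were summed over each class and given as CPM, each gene scaled to the total of that sum. In such sums fewer transcripts per cell and fewer expressing cells cannot be told apart, so shares of cells with a UMI are given beside the main levels. Levels were compared between classes and libraries for 1 gene at a time, not between genes.

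**Figure D1:**
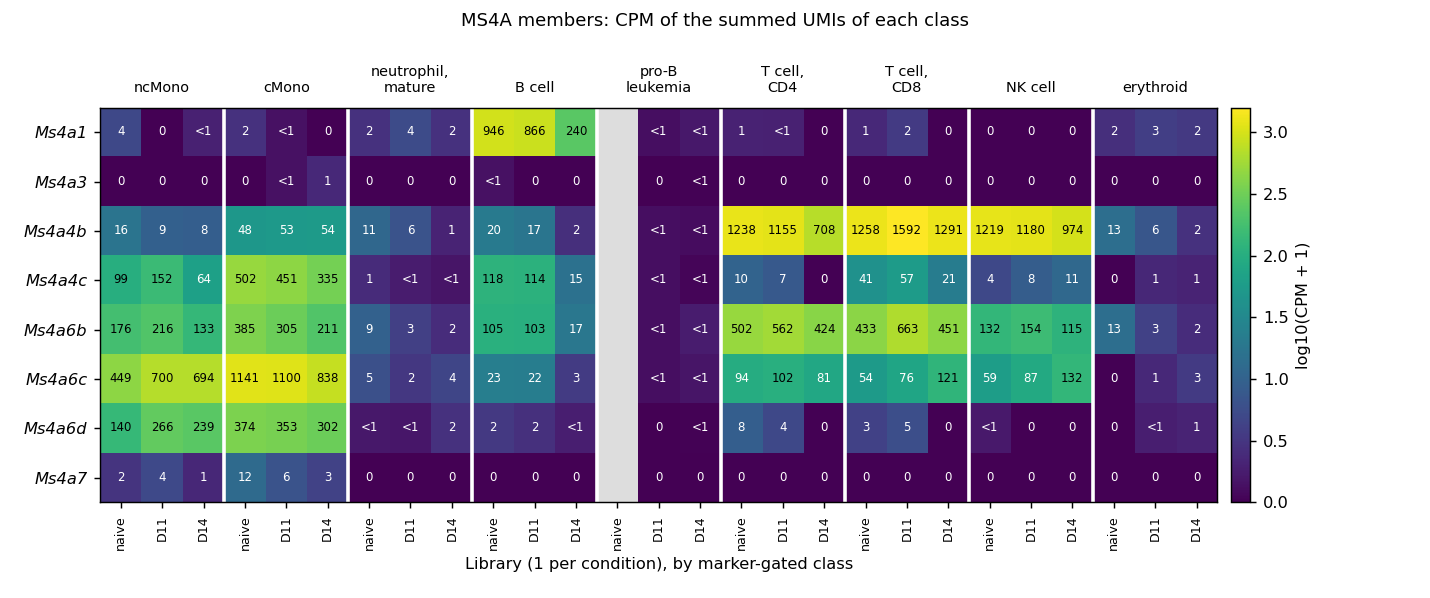
Level of each member (rows) in the summed UMIs of each marker-gated class (columns, 3 libraries each), as CPM in figures and as log10(CPM + 1) in color; gray marks sums of fewer than 20 cells, and rows are to be read along, not against each other. Ms4a1 sits in B cells (946 CPM in the naive library) and Ms4a4b in T and NK cells. Ms4a4c is highest in cMonos and lower in ncMonos, B cells and CD8 T cells (99.0, 118 and 40.9 CPM in the naive library). Ms4a6c and Ms4a6d sit mainly in monocytes, and Ms4a6b in T cells and monocytes. Ms4a3 and Ms4a7 are near 0 in all gated classes.

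The 8 members lie together on mouse chromosome 19 (GRCm38), where all 19 Ms4a genes of the annotation stand between chr19:10962293-11640851. Ms4a4c (chr19:11404770-11427246, + strand), Ms4a4b (chr19:11443553-11467055, +), Ms4a6c (chr19:11469366-11482192, +) and Ms4a6b (chr19:11516512-11531256, +) follow each other. Ms4a1 (chr19:11249675-11266241), Ms4a7 (chr19:11321039-11336146), Ms4a6d (chr19:11586604-11604849) and Ms4a3 (chr19:11629496-11640851) lie on the - strand. RefSeq promoters were matched for 6 of the 8 members. The neighbouring genes fell into 2 pairs with promoters that align, and the 250 bases before the RefSeq start (GRCm38.p6) are shown for these pairs because their members differ in the cells that hold them. Capitals mark stretches of at least 10 bases that are identical within the alignment of a pair. The windows are chr19:11443308-11443557 for Ms4a4b, chr19:11407411-11407660 for Ms4a4c, chr19:11518309-11518558 for Ms4a6b and chr19:11469118-11469367 for Ms4a6c, all on the + strand. Those of Ms4a4c and Ms4a6b lie within the gene positions given above, because the RefSeq start used is downstream of the start of those positions.
Ms4a4b: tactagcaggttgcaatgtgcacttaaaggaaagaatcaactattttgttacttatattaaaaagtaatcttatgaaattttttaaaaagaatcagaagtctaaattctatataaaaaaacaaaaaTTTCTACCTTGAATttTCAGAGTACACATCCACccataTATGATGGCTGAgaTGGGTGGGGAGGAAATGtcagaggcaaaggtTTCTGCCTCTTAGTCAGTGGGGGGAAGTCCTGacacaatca
Ms4a4c: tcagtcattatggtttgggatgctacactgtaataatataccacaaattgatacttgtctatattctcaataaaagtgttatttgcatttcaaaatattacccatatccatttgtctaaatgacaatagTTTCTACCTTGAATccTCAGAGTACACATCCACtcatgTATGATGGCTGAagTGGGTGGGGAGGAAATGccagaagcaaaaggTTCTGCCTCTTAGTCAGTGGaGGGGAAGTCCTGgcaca
Ms4a6b: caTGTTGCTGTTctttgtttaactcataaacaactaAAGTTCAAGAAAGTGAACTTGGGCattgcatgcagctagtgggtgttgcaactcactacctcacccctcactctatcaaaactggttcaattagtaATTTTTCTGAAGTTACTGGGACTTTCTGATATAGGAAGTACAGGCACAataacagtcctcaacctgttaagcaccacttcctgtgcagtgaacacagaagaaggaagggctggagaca
Ms4a6c: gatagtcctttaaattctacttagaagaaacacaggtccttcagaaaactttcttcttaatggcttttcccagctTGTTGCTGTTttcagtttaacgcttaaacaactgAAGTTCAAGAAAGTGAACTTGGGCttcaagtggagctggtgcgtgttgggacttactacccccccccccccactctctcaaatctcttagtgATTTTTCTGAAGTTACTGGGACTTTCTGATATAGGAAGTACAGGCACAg
The Ms4a4b and Ms4a4c windows shared 114 identical bases (89.8%) of a 127-base alignment, although the former gene was a T- and NK-cell gene here and the latter was highest in cMonos. The Ms4a6b and Ms4a6c windows shared 152 identical bases (89.4%) of a 170-base alignment, with a longest common run of 48 bases. The other 13 pairings of the 6 promoters gave alignments of at most 21 bases. On both strands, AGGAAGT, a core bound by ETS factors such as PU.1, occurred 2 times in the Ms4a6b window, once within the 48-base run. It occurred 1 time in that of Ms4a6c, within the same run, so these finds are not independent. Of 32851 promoters of the same length, 7.69% held it. It was not found in the windows of Ms4a3, Ms4a4b, Ms4a4c and Ms4a7. 

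In the same pairs, part of the 3′ end of Ms4a4c and of Ms4a6c, where the 10x chemistry reads, recurs in the other gene of the pair. Of 451 words of 50 bases in the last 500 bases of Ms4a4c, 53 (11.8%) also occurred in Ms4a4b, and 47 (10.4%) of those of Ms4a6c occurred in Ms4a6b. The other 6 members, with Ms4a4b and Ms4a6b among them, shared no such word with another member at their 3′ ends. The shared words thus lay outside the last 500 bases of Ms4a4b and Ms4a6b. How reads from shared stretches were assigned was not tested, so low levels of one gene of a pair in a class with high levels of the other are uncertain.

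Ms4a6c was higher in cMonos than in ncMonos of each library. Its level in cMonos was 1141 CPM (1089 to 1194) in the naive library, 1100 CPM (1061 to 1140) at D11 and 838 CPM (792 to 885) at D14. In ncMonos it was 449 CPM (409 to 493), 700 CPM (661 to 740) and 694 CPM (673 to 715) in that order. The levels of the classes thus lay closer together in both leukemic libraries. The log2 ratio of cMono over ncMono was 1.35 for naive, 0.65 (0.56 to 0.75) for D11 and 0.27 (0.18 to 0.36) for D14 cells, and the 3 intervals did not overlap. A UMI of Ms4a6c was found in 96.9%, 98.1% and 97.3% of cMonos and in 84.8%, 92.0% and 95.5% of ncMonos. The share in mature neutrophils was 1.34%, 0.79% and 1.27%. Median depths were 3172 to 3421 UMIs in mature neutrophils, 7884 to 9235 UMIs in ncMonos and 12445 to 20387 UMIs in cMonos. With each cell thinned to 1000 UMIs, the share of ncMonos was 32.8% (24.7 to 41.8), 43.2% (36.2 to 50.4) and 46.1% (42.2 to 50.1), and that of cMonos 61.1%, 63.8% and 54.8%.

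Ms4a6d, a macrophage gene, had the same arrangement. Levels in cMonos were 374 CPM (345 to 405) in the naive library, 353 CPM (331 to 376) at D11 and 302 CPM (275 to 331) at D14. The ncMono levels were 140 CPM (118 to 165), 266 CPM (242 to 292) and 239 CPM (227 to 252). The naive ncMonos were the lowest, with an interval apart from those of both leukemic libraries. Against the naive ncMonos the log2 ratio was 0.93 (0.65 to 1.21) for D11 and 0.77 (0.52 to 1.03) for D14, while in cMonos it was -0.08 (-0.23 to 0.07) and -0.31 (-0.49 to -0.13). A UMI was found in 45.6%, 64.3% and 75.3% of ncMonos (naive, D11, D14), and in 11.2% (6.3 to 18.1), 20.6% (15.2 to 26.9) and 19.7% (16.6 to 23.0) after thinning to 1000 UMIs. Mature neutrophils had 0.20% to 0.49% of cells with a UMI.

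Of Ms4a4c, Ms4a6b, Ms4a6c and Ms4a6d, Ms4a4c differed most between the monocyte classes in each library. In cMonos it was 502 CPM (468 to 538) in the naive library, 451 CPM (426 to 477) at D11 and 335 CPM (306 to 366) at D14. In ncMonos it was 99.0 CPM (80.5 to 121), 152 CPM (134 to 172) and 64.2 CPM (58.0 to 70.9), so that D11 was the highest and D14 the lowest, with no overlap of the intervals. The level of cMonos was 5.07-fold that of ncMonos in the naive library, 2.97-fold at D11 and 5.22-fold at D14. Ms4a4c was found in 91.8% to 93.2% of cMonos and in 40.0%, 52.3% and 36.0% of ncMonos. Thinned to 1000 UMIs, the ncMono shares were 9.6% (5.1 to 16.2), 15.6% (10.8 to 21.4) and 6.6% (4.8 to 8.9). Mature neutrophils had a UMI in at most 0.26% of cells.

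Ms4a6b was held by monocytes as well as T cells. Its cMono level was 385 CPM (355 to 416) in the naive library, 305 CPM (284 to 326) at D11 and 211 CPM (189 to 236) at D14, lower at each later time. Its ncMono level was 176 CPM (151 to 204), 216 CPM (195 to 239) and 133 CPM (124 to 143). The log2 ratio of cMono over ncMono was 1.13 (0.88 to 1.38), 0.50 (0.32 to 0.68) and 0.66 (0.47 to 0.85). Shares of cells with a UMI were 88.0% to 93.1% of cMonos and 61.9% to 73.4% of ncMonos, against 0.59% to 2.76% of mature neutrophils.

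**Figure D2:**
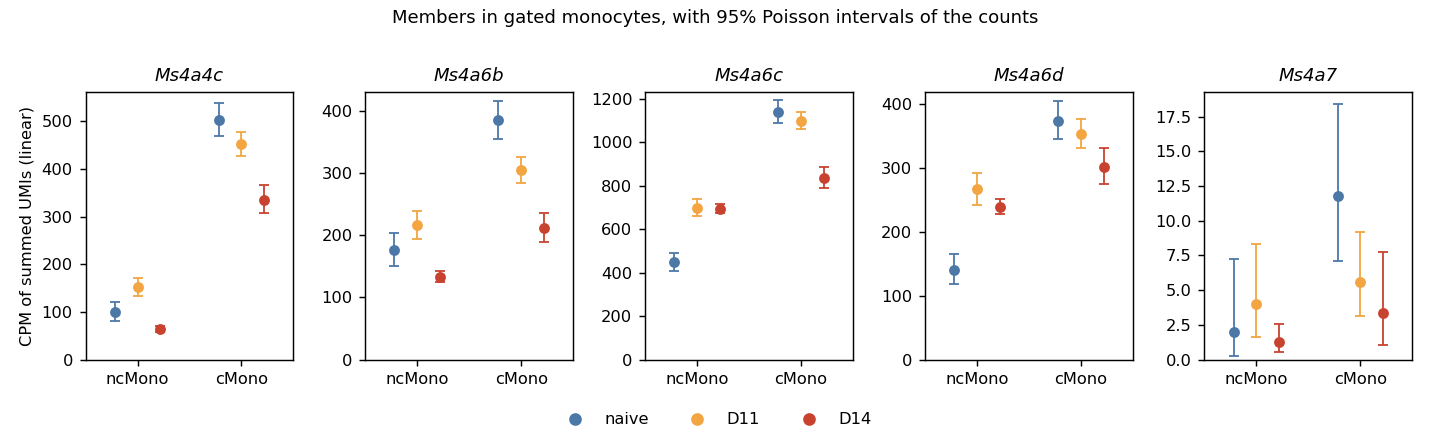
Levels of 5 members in the gated ncMonos and cMonos of the naive, D11 and D14 libraries, as CPM of the summed UMIs on linear axes that differ between genes; points are 1 library each and bars 95% Poisson intervals for counting error. Ms4a6c and Ms4a6d are lowest in the naive ncMonos (449 and 140 CPM), Ms4a4c and Ms4a6b are lowest in the D14 ncMonos, and all 4 are lowest at D14 among the cMonos.

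By size, the members were set beside all genes whose mean in a class was 20 CPM or more, of which ratios of at least 2-fold were counted. Of the 4 members this took in for ncMonos, none reached 2-fold at D11 over naive (all genes, 3.89% either way) or at D14 over naive (5.86%). Their median log2 ratio was 0.63 at D11, with 4 of 4 above 0, against -0.05 over 6092 genes, and at D14 there were 2 above and 2 below 0. From D11 to D14, Ms4a4c was the 1 of 4 members at least 2-fold lower (0.985% of all genes), with a log2 ratio of -1.24 (-1.47 to -1.01). In cMonos, 0 of 5 members reached 2-fold at D11 (1.71% of all genes) or D14 (7.73%). The median of these members was -0.45 at D14 over naive, with 4 of 5 below 0, against 0.05 over 6090 genes.

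More members passed 2-fold between the monocyte classes. In the naive library, 5 of 5 members passing 20 CPM were at least 2-fold higher in cMonos, against 8.64% of all genes, with a median log2 ratio of 1.42 against -0.12. At D11 there were 2 of 5 (6.23% of all genes) and at D14 2 of 5 (9.81%), Ms4a4b and Ms4a4c both times. The median of the members was then 0.65 at D11 and 0.66 at D14. Ms4a4b was only 16.0, 8.64 and 8.13 CPM in ncMonos (naive, D11, D14). It passed the minimum only through cMonos, the class in which it was then called higher, so its calls carry no weight. The calls apart from it were Ms4a4c, Ms4a6b, Ms4a6c and Ms4a6d in the naive library and Ms4a4c at D11 and D14. When barcodes with a further well-detected list were kept, naive Ms4a6b was under 2-fold, at a log2 ratio of 0.93, and naive Ms4a4b had a log2 ratio of -0.027 in place of 1.59, so that both calls were lost.

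Monocytes were also ordered without a gate between the classes, by the share of cMono markers less the share of ncMono markers found in each barcode, in 5 bins. These bins include the barcodes with a further well-detected list that the gates leave out, and the middle bin held 23 to 31 barcodes. Ms4a4c was 91.3 CPM in the bin nearest to ncMonos and 526 CPM in the bin nearest to cMonos of the naive library, 136 and 472 CPM at D11, and 60.4 and 290 CPM at D14. Ms4a6c was 459 and 1190 CPM in these end bins of the naive library, 674 and 1087 CPM at D11, and 681 and 855 CPM at D14. At D14 the values of Ms4a6c in the middle bin and in both bins on the cMono side were 780, 748 and 855 CPM, and the intervals overlap except between the last pair. Ms4a6d had, over the same 3 bins at D14, 275, 282 and 297 CPM with overlapping intervals. Its lowest value at D14 was 152 CPM (132 to 175) in the second bin, below 242 CPM (229 to 255) in the bin nearest to ncMonos. In the naive library these bins did not differ beyond counting error, at 146 CPM (114 to 185) and 129 CPM (104 to 158). The lower second bin at D14 was not particular to Ms4a6d. Ms4a6c was 550 CPM (510 to 592) there, against 681 CPM (660 to 703) in the bin nearest to ncMonos. Ms4a6b was 87.8 CPM (72.4 to 105) against 136 CPM (126 to 145), and Ms4a4a 146 CPM (126 to 168) against 205 CPM (193 to 217). For Ms4a4c the intervals overlapped, at 53.9 CPM (42.0 to 68.1) and 60.4 CPM (54.1 to 67.1). Ms4a4b, a lymphocyte gene, was 85.7 CPM in the naive bin nearest to ncMonos, against 16.0 CPM in the gated ncMonos.

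**Figure D3:**
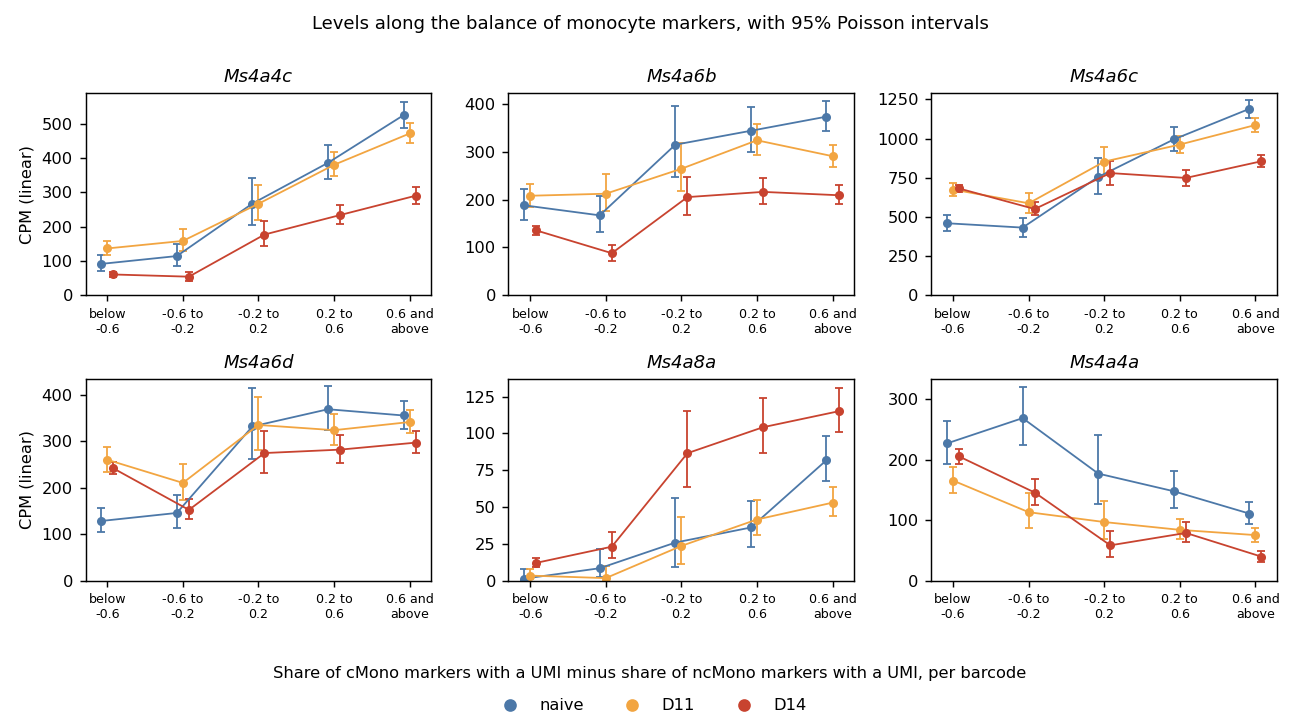
Levels of 4 members and of Ms4a8a and Ms4a4a (CPM, linear axes) in monocyte barcodes by the share of cMono markers minus the share of ncMono markers with a UMI, in 5 bins from ncMono (left) to cMono (right); points are sums of 1 library and bars 95% Poisson intervals. Ms4a4c is 91.3 CPM at the ncMono end and 526 CPM at the cMono end of the naive library and 60.4 and 290 CPM at D14, and Ms4a4a goes the other way.

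Ms4a7, a macrophage gene, was close to undetected. All barcodes as deposited held 27, 30 and 26 UMIs of it (naive, D11, D14), with at most 4 in 1 barcode. Of these, 19 naive, 15 D11 and 5 D14 UMIs fell to cMonos, which gave 11.8 CPM (7.1 to 18.4), 5.59 CPM (3.1 to 9.2) and 3.32 CPM (1.1 to 7.8). The ncMonos had 2, 7 and 8 UMIs, and no UMI was found in gated neutrophils, lymphocytes or leukemic cells. The log2 ratio to naive cMonos was -1.07 (-2.15 to -0.02) for D11 and -1.82 (-3.60 to -0.36) for D14, from these few UMIs, and the gene did not pass the minimum of 20 CPM in any class compared.

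Ms4a1 was the B-cell member, and in sums of at least 20 cells no other gated class exceeded 5 CPM. Levels in B cells were 946 CPM (908 to 984) in the naive library, 866 CPM (822 to 912) at D11 and 240 CPM (213 to 270) at D14. The D14 level was thus far below the others, at a log2 ratio to naive of -1.98 (-2.16 to -1.80). A UMI was found in 88.9% (85.4 to 91.8), 87.5% (83.0 to 91.1) and 46.2% (35.0 to 57.8) of B cells, and in 49.8%, 49.6% and 21.2% after thinning to 1000 UMIs. Mature neutrophils had 0.49% to 0.85%.

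The leukemic cells, of pro-B type, hardly held Ms4a1, with 11 UMIs among 18797911 at D14 (0.59 CPM) and a UMI in 1.47% of 613 barcodes at a median of 29511 UMIs. At D14, 33 of the 80 gated B cells held a UMI of Vpreb1, Igll1, Dntt or Myl10, transcripts of the leukemic cells, against 5 of 279 at D11 and 0 in the naive library. In these 33 barcodes Ms4a1 was 60.7 CPM (43.7 to 82.0) and was found in 12.1%. In the other 47 it was 509 CPM (446 to 578) and was found in 70.2%. The log2 ratio of these 47 to naive B cells was -0.89 (-1.09 to -0.70), under 2-fold, so the call by size was lost, while the direction held. Their median depth was 6894 UMIs, against 18424 UMIs in the 33. In the same 47 cells Ighd, the heavy chain of IgD on naive B cells, was 310 CPM (261 to 365) and found in 72.3%, against 805 CPM (770 to 841) and 87.9% in the naive library. Igha, the heavy chain of IgA, was 2987 CPM there, with 1379 UMIs in 2 cells, against 1 UMI in 404 naive B cells. The 274 D11 B cells without a leukemic transcript had 923 Igha UMIs in 11 cells, and Ighd at 633 CPM (595 to 673) in 77.7% of cells. Their Ms4a1 level was 867 CPM (823 to 913). The part of these differences in the level of Ms4a1 was not tested.

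Ms4a4c and Ms4a6b were present in B cells as well. Ms4a4c was 118 CPM (105 to 132) in the naive library, 114 CPM (98.8 to 132) at D11 and 14.7 CPM (8.6 to 23.6) at D14. Ms4a6b was 105 CPM (92.9 to 119), 103 CPM (87.9 to 119) and 17.3 CPM (10.6 to 26.8). Both were alike in the naive and D11 libraries and low at D14, with 17 and 20 UMIs. In all gated B cells, 3 of 3 members were at least 2-fold lower at D14 than in the naive library (10.2% of all genes), and none was at D11 (0.700%). Ms4a4c and Ms4a6b were under 20 CPM at D14 and passed the minimum only through the naive and D11 libraries, where they were higher. Their calls thus carry no weight. The call apart from them was Ms4a1, which was lost without barcodes that held a leukemic transcript. Without barcodes that held a leukemic transcript, the D14 levels were 36.8 CPM (21.5 to 59.0) for Ms4a4c and 34.7 CPM (19.8 to 56.3) for Ms4a6b, with log2 ratios of -1.68 (-2.48 to -0.97) and -1.60 (-2.43 to -0.87).

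Ms4a4b marked T and NK cells about equally. In the naive library it was 1258 CPM (1212 to 1306) in CD8 T cells, 1238 CPM (1212 to 1265) in CD4 T cells and 1219 CPM (1165 to 1276) in NK cells, which do not differ beyond counting error. It was found in 98.9% to 99.5% of the cells of these classes, against 3.65% of mature neutrophils. At D11 the order was CD8 T cells with 1592 CPM (1472 to 1720), NK cells with 1180 CPM (1118 to 1244) and CD4 T cells with 1155 CPM (1090 to 1222), of which the last pair do not differ. At D14 all 3 stood apart, with 1291 CPM (1163 to 1429) in CD8 T cells, 974 CPM (874 to 1082) in NK cells and 708 CPM (631 to 792) in CD4 T cells. CD8 T cells thus had a level near that of the naive library, and CD4 T cells were lower at a log2 ratio of -0.81 (-0.98 to -0.64).

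CD4 T cells were divided by a UMI of Foxp3, the factor of regulatory T cells. The 34 cells without one had 943 CPM (829 to 1068) of Ms4a4b at D14, at a log2 ratio of -0.42 (-0.60 to -0.23) to 664 such naive cells. The 15 cells with a Foxp3 UMI had 340 CPM (258 to 441) at D14, against 998 CPM (883 to 1124) in 26 cells at D11 and 1060 CPM (984 to 1141) in 64 naive cells. Their log2 ratio to naive was -1.64 (-2.06 to -1.25), an interval apart from that of the cells without one, in few cells. A split by S100a4, a gene of memory and effector T cells, gave -0.86 (-1.10 to -0.63) with a UMI and -0.38 (-0.66 to -0.13) without one. Foxp3-positive cells made up 15 of 49 CD4 T cells at D14 and 64 of 728 in the naive library. Both splits were chosen after the data were seen.

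Ms4a6b was the second member of T cells. CD4 T cells had 502 CPM (485 to 519) in the naive library, 562 CPM (517 to 610) at D11 and 424 CPM (364 to 490) at D14. CD8 T cells had 433 CPM (406 to 462), 663 CPM (587 to 747) and 451 CPM (377 to 536), highest at D11. NK cells were lower, at 132, 154 and 115 CPM with overlapping intervals. A UMI was found in 94.4% of naive CD8 T cells and 61.1% of naive NK cells.

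Ms4a6c was low in lymphocytes, but not absent. In NK cells it was 58.8 CPM (47.3 to 72.3) in the naive library, 87.3 CPM (71.1 to 106) at D11 and 132 CPM (96.9 to 175) at D14. CD8 T cells had 54.5 CPM (45.2 to 65.1), 76.2 CPM (51.7 to 108) and 121 CPM (84.6 to 169). In both, D14 was the highest and its interval was apart from that of the naive library. CD4 T cells had 93.5, 102 and 81.5 CPM with overlapping intervals. Ms4a6d had 1 UMI in naive NK cells, 7 in naive CD8 T cells (3.18 CPM) and 54 in naive CD4 T cells (7.96 CPM). At D11 it had 0, 2 and 4 UMIs in this order. At D14 no UMI was found in any of them, which allows 8.42, 10.4 and 6.99 CPM at 3 counts. Ms4a6b, in which 10.4% of the 3′ words of Ms4a6c recur, was 115 to 663 CPM in these classes.

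Past 2-fold, T cells as a whole had 0 of 3 members at D11 (4.50% of all genes either way) and 0 of 3 at D14 (6.31%). CD8 T cells had 1 of 4 members at least 2-fold higher at D14, Ms4a6c at a log2 ratio of 1.16 (0.57 to 1.71) from 35 UMIs, against 5.50% of all genes. NK cells had 1 of 3, again Ms4a6c at 1.16 (0.62 to 1.69) from 47 UMIs, against 2.96%. In NK cells this ratio was 0.57 when barcodes with a further well-detected list were kept.

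**Figure D4:**
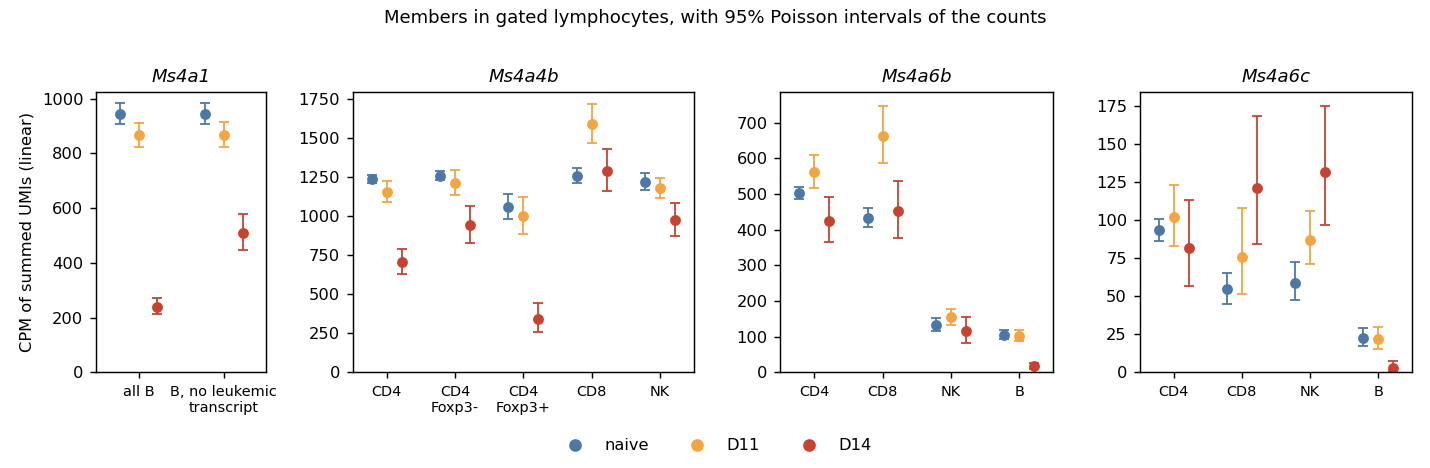
Levels of Ms4a1, Ms4a4b, Ms4a6b and Ms4a6c in gated lymphocytes of the naive, D11 and D14 libraries (CPM of the summed UMIs, linear axes that differ between genes); points are 1 library each and bars 95% Poisson intervals, and Foxp3+ and Foxp3- are CD4 T cells with and without a Foxp3 UMI. D14 is lowest for Ms4a1 in B cells, at 509 CPM without barcodes that hold a leukemic transcript, and for Ms4a4b in Foxp3+ CD4 T cells, at 340 CPM.

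Ms4a4b was also found in cMonos, at 48.3 CPM (38.2 to 60.3) in the naive library, 53.3 CPM (44.9 to 62.8) at D11 and 53.8 CPM (42.8 to 66.9) at D14. The ncMonos had 16.0, 8.64 and 8.13 CPM, and mature neutrophils 10.9, 5.50 and 1.06 CPM. In these gated sums cMonos were above both in each library, and their levels in the 3 libraries had overlapping intervals. With barcodes of a further well-detected list kept, the naive cMonos were not above the naive ncMonos (log2 ratio -0.027 in place of 1.59). The log2 ratio of D14 over naive cMonos, 0.16, was -0.43 under that setting and 0.88 as a mean of per-cell CPM. Thinned to 1000 UMIs, 0.8%, 3.4% and 9.6% of cMonos had a UMI, against 38.2%, 43.3% and 54.8% unthinned. Ms4a4c, of whose 3′ words 11.8% recur in Ms4a4b, was 335 to 502 CPM in the same cells.

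Ms4a3, the progenitor member, was found in few barcodes. There were 8 UMIs in 2 naive barcodes, 16 in 7 D11 barcodes and 38 in 19 D14 barcodes, all barcodes as deposited counted. The naive UMIs were 7 in 1 neutrophil and 1 in a B cell. Barcodes of no class held 12 of the 16 UMIs at D11, in 3 barcodes, and 30 of the 38 at D14, in 11 barcodes. Of those, 2 of 3 and 10 of 11 also held a UMI of Mpo, Elane or Prtn3, granule protein genes of myeloid progenitors. The share over all barcodes of no class was not computed, and among those with an Ms4a7 UMI it was 2 of 6 and 6 of 12. By marker balance, which keeps barcodes with a further list, Ms4a3 had 2, 7 and 18 UMIs at D14 in the middle bin and the 2 bins on the cMono side. At D11 it had 0, 2 and 1 there. Most Ms4a3 UMIs at D14 thus lay in barcodes with a monocyte list leading. No gated class exceeded 3 CPM in sums of at least 20 cells.

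Classes of fewer than 20 cells held some members too. Conventional dendritic cells, with 8, 8 and 3 barcodes (naive, D11, D14), had 44, 32 and 24 UMIs of Ms4a6c and 13, 17 and 12 of Ms4a4c. Basophils, with 11, 11 and 2 barcodes, had 21, 16 and 3 UMIs of Ms4a6b.

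Across the whole of the kept barcodes the members came from different classes in different libraries. Ms4a4b made up 673 CPM of the naive library, 118 CPM at D11 and 30.0 CPM at D14, with T cells holding 81.1%, 56.1% and 55.3% of its UMIs. These levels are scaled to all UMIs of kept barcodes, so they depend on the make-up of each library. Erythroid barcodes held 597526, 14977214 and 6356540 of those UMIs (naive, D11, D14) and pro-B leukemia barcodes 49639, 3022547 and 18797911. On this scale Ms4a6c was 173, 160 and 156 CPM, from 4571, 5906 and 7980 UMIs in 3811, 4567 and 4414 kept barcodes. The cMonos held 40.3%, 49.9% and 15.8% of it and ncMonos 9.82%, 20.6% and 53.5%. Ms4a6d was likewise 44.0, 51.1 and 53.4 CPM, with ncMonos holding 12.0%, 24.5% and 53.9%. T cells held 73.5% of the Ms4a6b UMIs in the naive library, and ncMonos held 35.9% at D14. Barcodes of no class held 5.52% to 36.1% of the UMIs of Ms4a1, Ms4a4b, Ms4a4c, Ms4a6b, Ms4a6c and Ms4a6d.

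**Figure D5:**
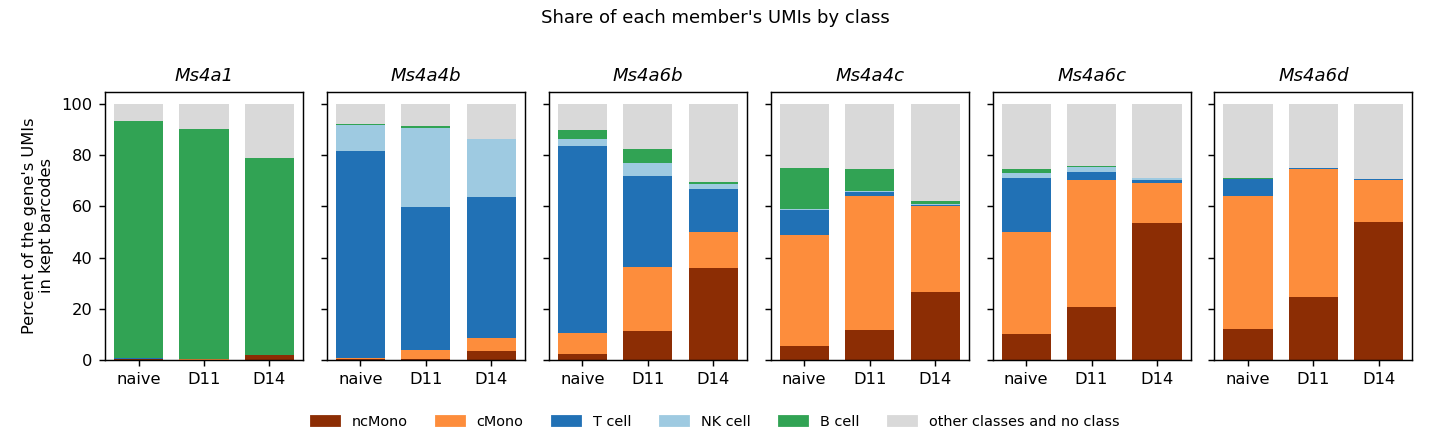
Percent of the UMIs of 6 members held by each class among the kept barcodes of the naive, D11 and D14 libraries; stacked bars start at 0 and sum to all UMIs of the gene, and gray is other classes and barcodes of no class. The ncMono part of Ms4a6c is 9.82% in the naive library and 53.5% at D14, and T cells hold most Ms4a4b in each library.

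Of the 11 other Ms4a genes, Ms4a4a, Ms4a8a and Ms4a2 reached 20 CPM in a class. Ms4a4a, a macrophage gene, was the only one of these in monocytes that was higher in ncMonos, at 262, 153 and 204 CPM (naive, D11, D14), than in cMonos, at 125, 80.9 and 55.2 CPM. Its log2 ratio of cMono over ncMono was -1.07 (-1.34 to -0.80), -0.92 (-1.19 to -0.66) and -1.88 (-2.22 to -1.56), opposite in sign to that of Ms4a4c, Ms4a6b, Ms4a6c and Ms4a6d in each library. Ms4a8a was a cMono gene, at 66.3 CPM (54.4 to 80.1), 52.6 CPM (44.3 to 62.0) and 133 CPM (115 to 153), highest at D14. Ms4a2, the beta chain of the high-affinity IgE receptor, was held by basophils, with 63 UMIs in 11 naive cells, 50 in 11 D11 cells and 19 in 2 D14 cells.

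The related genes Tmem176a and Tmem176b, on chromosome 6, had the same pattern in ncMonos. Tmem176b had 15.0 CPM in the naive library, 51.3 CPM (41.2 to 63.1) at D11 and 0.98 CPM at D14, with UMIs in 7, 25 and 4 cells. Tmem176a had 6, 71 and 6 UMIs there. Both were higher in cMonos than in ncMonos of each library. In cMonos Tmem176b was 124, 103 and 36.6 CPM (naive, D11, D14), with a UMI in 62 of 131 naive cells, and Tmem176a 50.2, 61.9 and 21.3 CPM. In the T-cell gate Tmem176a was 1.99 CPM (1.26 to 2.99), 44.7 CPM (36.1 to 54.7) and 19.5 CPM (11.6 to 30.9), and the D11 UMIs came from 27 of 281 cells. Of these 94 UMIs, CD4 T cells held 5 (4.90 CPM) and CD8 T cells 5 (12.3 CPM). Most lay in barcodes of the gate that were neither CD4 nor CD8 T cells.

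Of 11 partners of MS4A proteins, 5 passed 20 CPM in ncMonos and 4 in cMonos. None of these was 2-fold apart at D11 over naive in either class (3.89% of all genes in ncMonos and 1.71% in cMonos). At D14 (5.86% and 7.73%) Cd40, a receptor of antigen-presenting cells, was the 1 partner at least 2-fold lower, in ncMonos. There 31 naive UMIs gave an interval of 21.1 to 44.0 CPM and 82 D14 UMIs one of 10.6 to 16.5 CPM. Cd40 was thus under 20 CPM at D14 and passed the minimum only through libraries where it was higher, so its call is not counted. Fcer1g, the signaling chain of Fc receptors, was 1584, 2098 and 2129 CPM in ncMonos and 1650, 1373 and 1101 CPM in cMonos. It was thus higher in the leukemic than in the naive ncMonos, as Ms4a6c and Ms4a6d were. Ms4a4c and Ms4a6b were not at D14, with log2 ratios to naive ncMonos of -0.63 and -0.40. Fcer1g was chosen after its values were seen, and the directions of the remaining partners in ncMonos, apart from Cd40, are not given. Tnfrsf18, which encodes the T-cell receptor GITR, was 38.1 CPM in naive CD4 T cells, 82.3 CPM at D11 and 114 CPM at D14. The kinase Lyn was 6.19 CPM (4.46 to 8.37), 18.6 CPM (11.2 to 29.1) and 44.2 CPM (26.6 to 69.1) there. These were the 2 of 11 partners that passed 20 CPM in CD4 T cells. Tnfrsf18 was at least 2-fold higher at D11 (4.04% of all genes) and D14 (7.32%). Lyn was past 2-fold too, but it was under 20 CPM in the naive and D11 libraries. It passed the minimum only through D14, where it was high, so its call is not counted. Cells with a Foxp3 UMI were 64 of 728 naive and 15 of 49 D14 CD4 T cells, and their part in these levels was not tested. In CD8 T cells Tnfrsf18 was the 1 partner that passed 20 CPM. It was at least 2-fold higher at D11 over naive there, but not at D14. No share of all genes is given for the CD8 contrast at D11, so this call carries no weight. Cd79a and Cd79b, the signaling chains of the B-cell receptor and markers of the B-cell gate, were 1564 and 1242 CPM in naive B cells and 720 and 414 CPM at D14. In these B cells 5 of 6 partners were at least 2-fold lower at D14 than in the naive library (10.2% of all genes), with Cd40, Syk and Lyn beside the Cd79 pair, and the gate then held the 33 barcodes with leukemic transcripts. The kinase Syk was 1720 CPM in naive B cells and 439 CPM at D14.

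Likeness of pattern was measured as the Pearson correlation of log2(CPM + 1) over 28 sums of class and library, against 7037 genes. The sums share libraries and cells between classes and subclasses, and the values are a description. The genes most like Ms4a6d included Arhgef37 (0.96) and Ifi202b (0.95). Ms4a6c was most like Fam49a (0.92), Lgals3bp (0.91) and Dse (0.90), and Ms4a4c like Scpep1 (0.85), H2-DMa (0.84) and Apba1 (0.83). Ms4a4b was most like Gprin3 (0.94), Cd226, a receptor of T and NK cells (0.94), and Rora (0.93), and Ms4a6b like Fbxo32 (0.92), Phf11b (0.92) and Abcc1 (0.91). Ms4a1 was most like Iglc2, an immunoglobulin light chain gene (0.96), Fcer2a, a marker of the B-cell gate (0.96), and 2010309G21Rik (0.96). Ms4a7 was most like Rnd3 (0.97), Fcgr1 (0.97) and Stxbp6 (0.95), and Ms4a3 like Orm1 (0.78), Chil3 (0.75) and F730016J06Rik (0.75), both from few UMIs. Among the members themselves, Ms4a6d and Ms4a7 were the most alike (0.91), then Ms4a6b and Ms4a6c (0.85), while Ms4a4b and Ms4a4c, with their alike promoters, had 0.28. By Spearman correlation the order differed. Ms4a4b and Ms4a6b then came first (0.86), Ms4a6b and Ms4a6c had 0.76, Ms4a6d and Ms4a7 0.72, and Ms4a4b and Ms4a4c 0.45.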

How the data were processed

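PB leukocytes gave 3 libraries of 10x 3′ v3 chemistry. The authors ran Cell Ranger (7.1.0 per the submitters' processing notes, 5.0.1 per the file headers, mm10) and deposited filtered matrices of raw counts, whole UMIs per gene and barcode, with no normalization. All values here were computed from these counts. Reads of Balb/C mice were mapped to a reference of another strain, and what this does to near-identical members was not tested.

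Barcodes under 200 genes or over 10% of mitochondrial UMIs were dropped. A barcode went to the marker list with the largest share of its members detected, if at least 3 were, if no other list tied, and if no other list reached 50%. Barcodes with at least 50% hemoglobin UMIs were erythroid. T cells were split by Cd4 against Cd8a or Cd8b1, and neutrophils at 0.5% of UMIs in Ltf, Camp and Ngp (immature at or above). Doublets were treated only by the rule on further lists, with Scrublet (scanpy 1.11.5) as an alternative. UMIs were summed per class and library as CPM. Intervals were exact Poisson for levels, conditional binomial for ratios and Clopper-Pearson for shares (scipy 1.17.1), for counting error only. Depth limits the small lymphocyte sums, where 3 counts amount to 10.4 CPM in CD8 T cells, 8.42 CPM in NK cells and 6.99 CPM in CD4 T cells at D14, and to 7.37 CPM in CD8 T cells at D11. With 1 library per condition no test was run, and a gene was called when past 2-fold with a mean of 20 CPM or more over the 3 libraries, or over both classes for cMono against ncMono. The text describes all 8 members, the other Ms4a genes with Tmem176a and Tmem176b, a list of partner genes by counts, with values for a few chosen after they were seen and the 3 genes most like each member, of which 1 is not reported here. The members and lists were chosen with earlier results of these data known. The procedures were tested on simulated data. TMM factors came from edgeR 4.0.16 and served only as an alternative scaling. Positions are GENCODE vM21 (GRCm38), in which 32235 of 32285 identifiers were found, and promoters are RefSeq (GRCm38.p6).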

Additional observations from a re-analysis of the deposited data

Results flagged for a closer look

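Several members had opposite signs between related cell classes under the same contrast, each seen in 1 library per condition, and none of these differences was tested. For D11 over naive, the log2 ratio of Ms4a4c was 0.62 in ncMonos and -0.15 in cMonos, and that of Ms4a6b was 0.30 in ncMonos and -0.34 in cMonos. For D14 over naive, Ms4a6c had 0.63 in ncMonos and -0.45 in cMonos, and Ms4a6d had 0.77 in ncMonos and -0.31 in cMonos. Within T cells, Ms4a4b at D11 over naive had -0.10 in CD4 and 0.34 in CD8 T cells.

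Outside the gated classes, Ms4a3 had 12 UMIs at D11 and 30 UMIs at D14 in barcodes of no class, against 0 UMIs in such barcodes of the naive library. These barcodes held 2947905, 9923784 and 2385008 UMIs in all (D11, D14, naive), so the D14 count came from the largest sum.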

How the results depend on the processing

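The ratios of Ms4a4c, Ms4a6b, Ms4a6c and Ms4a6d in cMonos and ncMonos and between these classes kept their direction under all alternatives run. Of 364 changes between libraries recomputed, 349 moved by less than their counting interval, as did 143 of 150 ratios of cMono over ncMono. Levels were less steady, with 149 of 180 recomputed values kept and 31 moved. Among the latter were all 18 levels computed without ribosomal, mitochondrial and hemoglobin genes, a setting that changes the total to which each gene is scaled. Under the 10 alternatives common to all, Ms4a1 in B cells at D14 over naive (-1.98) was -2.17 with all barcodes as deposited, -2.47 with a further marker list allowed, -2.17 without the highest Scrublet scores and -1.11 as a mean of per-cell CPM. It was -0.89 without barcodes that hold leukemic transcripts, an alternative chosen after seeing the data, as was leaving out shared barcodes. With a further list allowed, Ms4a4c in cMonos at D14 over naive was -0.83 and its cMono over ncMono ratio at D14 was 2.09. Under that setting Ms4a4b in cMono over ncMono of the naive library turned from 1.59 to -0.027, and its cMono ratios to naive were -0.20 at D11 and -0.43 at D14, against 0.14 and 0.16. As a mean of per-cell CPM, Ms4a4b in cMonos at D14 over naive was 0.88 and its cMono over ncMono ratio at D14 was 3.34, against 2.73. The cause was not tested. Ms4a6c in ncMonos at D14 over naive was 0.77 as a mean of per-cell CPM, and Ms4a4b in T cells was -0.56 with TMM factors. TMM factors shifted all genes by 0.11 in ncMonos at D11 and 0.10 at D14, -0.17 in B cells and -0.12 in T cells at D14, and 0.20 for cMono over ncMono in the naive library (log2). Over ncMonos, cMonos, B, T and NK cells, the count of members past 2-fold at D11 was 0, and 1 with a further list allowed, 1 as per-cell means, 1 with TMM factors, 2 at a minimum of 5 CPM and 3 at 1.5-fold. At D14 it was 4, and 8 at a minimum of 5 CPM, 1 at a minimum of 100 CPM and 8 at 1.5-fold. No share of all genes is given for these other settings, and a looser rule can call more of all genes too. The counts thus show how far they depend on the rule, and are not a result about the members. The genes most like a member mostly differed with Spearman correlation. No paired analysis was possible because each condition has 1 library, and for the same reason no library could be left out.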
